A study of Bos taurus with 90 samples.

Results

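MicroRNAs of the miR-2284 and miR-2285 family were measured by small RNA sequencing in 5 tissues of lactating dairy cows. MicroRNAs are short RNAs that guide Argonaute proteins to messenger RNAs, mainly by pairing of their 5′ seed, and lower the output of those messengers. The miR-2284 and miR-2285 names are annotated in cattle and other ruminants and carry a letter for each mature form, and many of those forms have several gene copies. What the single members do in the cow is largely unknown, so no function is given for them below.

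All miRNAs whose name starts with miR-2284 or miR-2285 were taken, whatever the letter or arm, if at least 1 tissue listed them. This gave 30 members, 13 named miR-2284 and 17 named miR-2285, among the 388 miRNAs listed in any tissue. The 90 libraries were 18 each from rumen epithelium, duodenum epithelium, jejunum epithelium, liver and mammary gland. Within each tissue 6 libraries came from cows fed alfalfa hay, 6 from cows fed corn stover and 6 from cows fed rice straw as the forage, and no animal was without one of these diets. The animals were 18 mid-lactation Chinese Holstein cows, per the study's methods, and the design states that every cow gave all 5 tissues, so libraries of different tissues are not independent. No age, date or lane is given in the labels. Values are CPM, reads of a miRNA scaled to a fixed total of reads mapped to annotated miRNAs. A read here covers a whole mature miRNA, so levels of members were compared without a length correction.

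Mapped miRNA reads ranged from 937556 to 15621501 per library, as implied by the CPM worth of 1 read, with a median of 5778305. The family held 825 to 39954 of these reads per library. In 4 mammary gland libraries (alfalfa hay replicate 1, rice straw replicates 1, 4 and 5) the mapped reads were the fewest of that tissue, at 937556 to 2624975, and in 2 of them, rice straw replicates 4 and 5, miR-141, an epithelial miRNA, was at 5685 and 3593 CPM against 15949 to 54985 CPM in the other 16. In jejunum the stratified-epithelium marker miR-31 was at 8.13, 10.1 and 37.7 CPM in corn stover replicates 1, 2 and 6, against 183 to 478 CPM in the other 15. Counts of members called in tissue pairs with mammary gland, diet calls, the diet by tissue test and the family share are given with and without them. Of the single members, only miR-2284x has its log2 difference between mammary gland and duodenum given both ways. The other differences from mammary gland use all its libraries. The liver miRNA miR-122 was at 8671 to 12721 CPM in liver, at 48.5 CPM or less in mammary gland and was not listed in the 3 gut tissues. The sum of miR-192, miR-194 and miR-215 was 144396 to 411412 CPM in duodenum and jejunum, 122056 to 195995 CPM in liver and 2598 to 4561 CPM in rumen, where miR-205 and miR-31 together reached 25814 to 54759 CPM. The 5 mammary epithelium miRNAs summed to 98001 to 256742 CPM in mammary gland, which overlapped the 84540 to 120912 CPM of liver. In liver miR-148a alone was at 83368 CPM or more. The lowest values of miR-141, miR-200a, miR-200b and miR-200c were 130, 53.7, 10.9 and 13.1 CPM in liver. In mammary gland they were 3593, 860, 147 and 1873 CPM. Each marker list with values in both duodenum and jejunum overlapped between them in its summed level.

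In the RefSeq annotation of the assembly ARS-UCD2.0, 191 of 1032 miRNA genes, or 18.5%, carry a miR-2284 or miR-2285 name, with 138 distinct names on 30 chromosomes. The 30 members listed in these data were thus 21.7% of the annotated names, and each of them matched a gene. They correspond to 63 genes, of which 43 lie within the span of a protein-coding gene (any overlap was counted and strand was not considered). The most abundant member, miR-2284x, has 1 gene, within the span of TIAM1. miR-2285t has 1 gene, within the span of FCGR2B, which encodes an inhibitory Fc receptor of B cells and myeloid cells. miR-2285f has 2 genes, 1 of them within the span of TBK1, a kinase of the interferon response. miR-2284z has 7 genes, miR-2285k has 5 and miR-2284aa has 4. Reads of members with several gene copies, or with near-identical sequences, cannot be assigned to 1 gene, and reads could map to up to 10 places in the alignment. Mature sequences were not used here.

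Rumen listed 25 members, duodenum 25, jejunum 22, liver 18 and mammary gland 22. A tissue that does not list a member has no value for it. Of the 30 members, 17 (56.7%) were listed in all 5 tissues, against 272 of the 358 other miRNAs (76.0%) and 12 of 38 other miRNAs of the neighbouring cattle-annotated name series (31.6%). Another 4 members were listed in 1 tissue only. These were miR-2284f in rumen, miR-2284p and miR-2285l in duodenum, and miR-2284j in mammary gland. The first 3 had means of 0.949 to 1.04 CPM, close to the value of 1 CPM that at least 9 of 18 libraries had to pass for a miRNA to be listed at all. miR-2284j was different in size, with a mean of 12.3 ± 4.92 CPM (SD, n = 18) and values from 4.51 to 21.9 CPM, and it ranked 11 of 22 members in mammary gland. Its gene lies within the span of GRIK4 and overlaps that of MIR2312.

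Levels differed widely between members. Averaged over the tissues that listed them, 6 members were at 40 CPM or more, 14 at 2 to 40 CPM and 10 under 2 CPM. The 6 high members were miR-2284x, miR-2285t, miR-2285f, miR-2284aa, miR-2285k and miR-2284z, and the 5 highest of each tissue all came from them. The part of the family's reads these 5 made up was smallest in rumen, at 83.2%. Duodenum had 87.7%, jejunum 87.3% and liver 89.2%, and mammary gland had the largest part, 92.7%. The median member mean was 10.3 CPM in rumen and 13.4 CPM in liver, against 53.4 and 60.8 CPM for all other miRNAs and 2.50 and 2.58 CPM for the other cattle-annotated miRNAs.

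**Figure D1:**
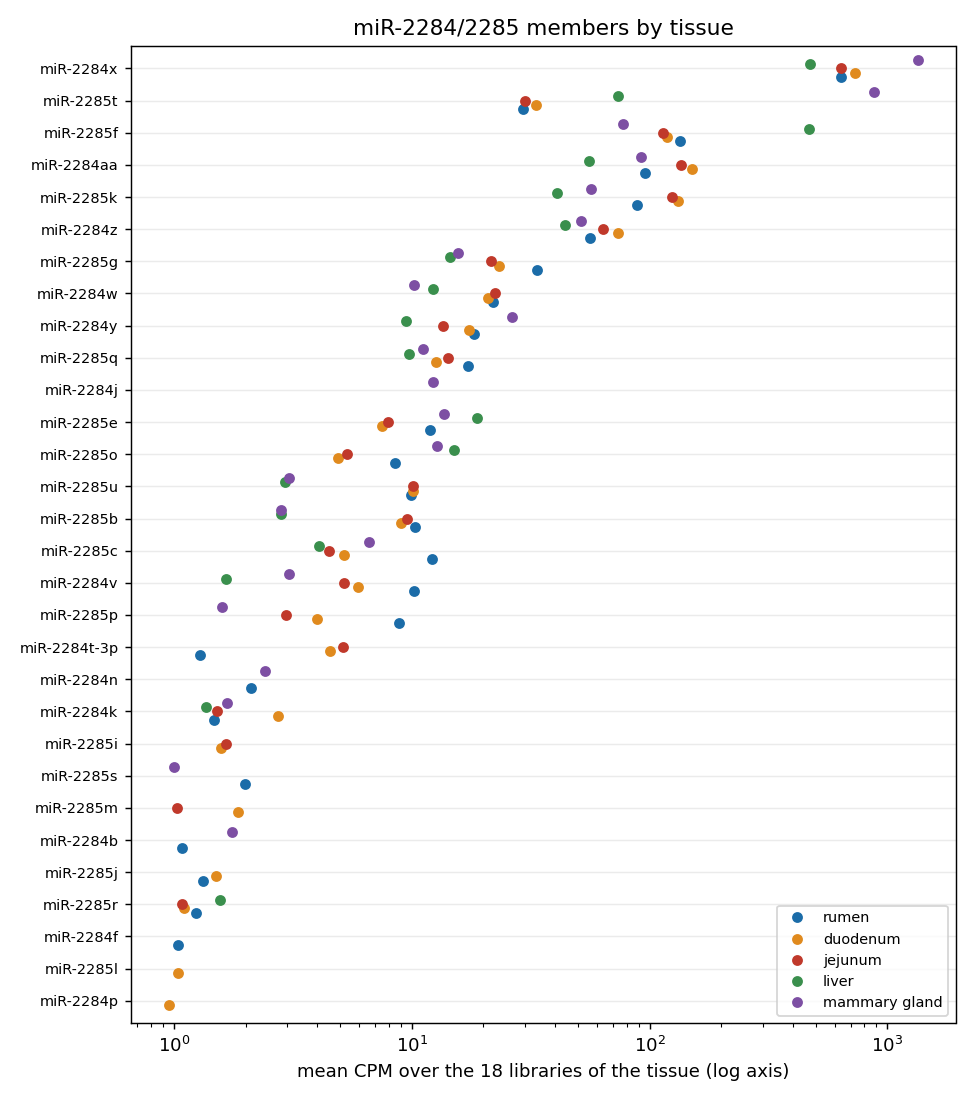
Mean CPM of each of the 30 members in each tissue that listed it (x axis, log scale), members ordered by their mean over those tissues and colours marking the 5 tissues. miR-2284x is at the top in each tissue, miR-2285f stands out in liver at 469 CPM and miR-2285t in mammary gland at 878 CPM, while 10 members lie under 2 CPM.

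The family as a whole was a small share of the miRNA reads, and that share was of like size in 4 of the 5 tissues. Rumen had a mean of 0.121% ± 0.0184, duodenum 0.137% ± 0.0150, jejunum 0.124% ± 0.0210 and liver 0.125% ± 0.0105 (SD, n = 18 each). In mammary gland it was 0.263% ± 0.124, with the lowest library at 0.0880%, the median at 0.235% and the highest at 0.578%. The mammary gland range thus covered those of the other tissues. Without its 4 shallow libraries the mammary gland mean was 0.249% ± 0.0751 (n = 14), with values from 0.166% to 0.478%. No test was made of this sum, since its members were chosen as a list.

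**Figure D2:**
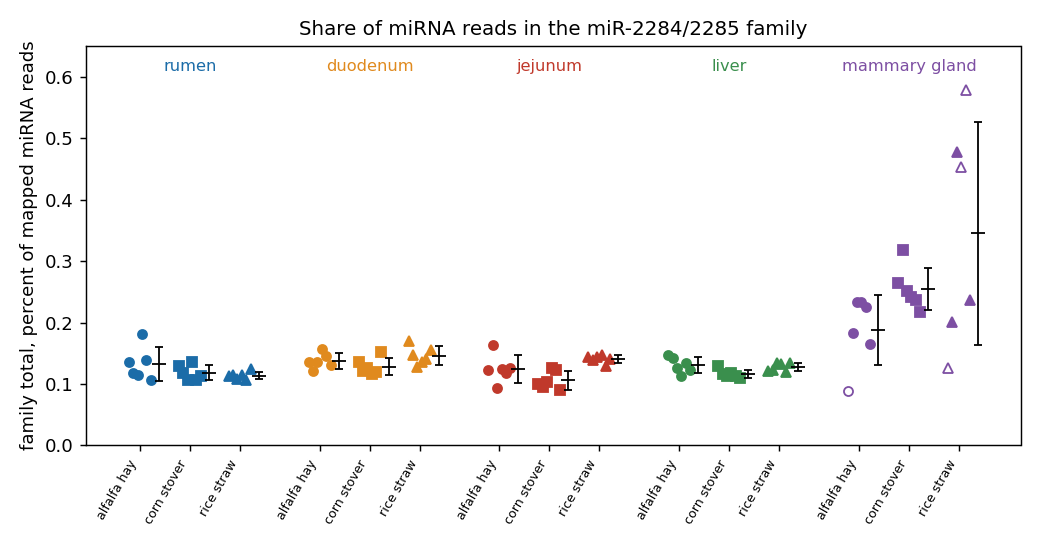
Family total as percent of mapped miRNA reads (y axis) in each of the 90 libraries, grouped by tissue and diet, with 6 libraries per group, and bars for the mean ± SD of the group. Open symbols mark the 4 mammary gland libraries with the fewest mapped reads. Mammary gland rice straw libraries spread from 0.126% to 0.578%, while each of the other 4 tissues stays at 0.182% or below.

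miR-2284x was the leading member in every tissue. Its level was 469 to 1113 CPM in rumen (median 635), 572 to 952 in duodenum (733), 429 to 886 in jejunum (635), 355 to 612 in liver (478) and 624 to 3771 in mammary gland (1135). Mammary gland values were the highest on the whole, with 10 of 18 libraries above every library of the other tissues, but the ranges overlapped. It supplied 52.3% of the family's reads in rumen, 53.0% in duodenum, 51.9% in jejunum and 51.9% in mammary gland, and 37.7% in liver. In limma fits on log2(CPM + 1), the difference between mammary gland and duodenum, the next tissue, was 0.75 ± 0.16 (SE, n = 18 each, adjusted p = 6.19e-05), and that between liver and duodenum was -0.63 ± 0.08 (adjusted p = 5.34e-10). Jejunum and rumen did not differ beyond their spread, with a difference of 0.01 ± 0.09 (adjusted p = 0.907). Without the 4 shallow mammary gland libraries, the range in mammary gland was 936 to 1466 CPM and the difference from duodenum 0.66 on the log2 scale (adjusted p = 2.71e-09 for miR-2284x, mammary gland minus duodenum, log2 fold change).

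miR-2285f was highest in liver. It ranged from 360 to 646 CPM there (median 463), from 91.1 to 188 CPM in rumen (134), from 89.9 to 192 in duodenum (118), from 73.7 to 148 in jejunum (114) and from 26.7 to 117 in mammary gland (78.7). All 18 liver libraries lay above all 72 others, and the mean ratio to rumen, the next tissue, was 3.50. The log2 difference between liver and rumen was 1.81 ± 0.09 (adjusted p = 1.62e-20), and it was 2.56 with upper-quartile scaling and 2.36 with trimmed-mean scaling of each library. With 37.6% of the family's reads, miR-2285f was level with miR-2284x in liver.

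miR-2285t was highest in mammary gland. Its values there ran from 96.0 to 2842 CPM (median 810), against 34.5 to 129 CPM in liver (68.4), 7.45 to 44.8 in rumen (32.9), 16.1 to 49.8 in duodenum (32.6) and 16.0 to 49.9 in jejunum (28.6). Of the 18 mammary gland libraries 17 were above every library of the other tissues, and the exception, alfalfa hay replicate 1, was the shallowest of all. The mean of 878 ± 634 CPM was 11.9 times that of liver. The log2 difference was 3.29 ± 0.27 from liver (adjusted p = 3.26e-14) and 4.64 ± 0.29 from rumen (adjusted p = 4.21e-18). Rumen, duodenum and jejunum did not differ beyond their spread, with adjusted p of 0.221 to 0.700 over their 3 pairs. The highest value, 2842 CPM in rice straw replicate 3, came from the library that also had 430 CPM of the muscle miRNA miR-1, which was at 12.0 CPM or less in the other 17. In bulk tissue a change in the share of cells that make a miRNA and a change in its level per cell cannot be told apart.

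**Figure D3:**
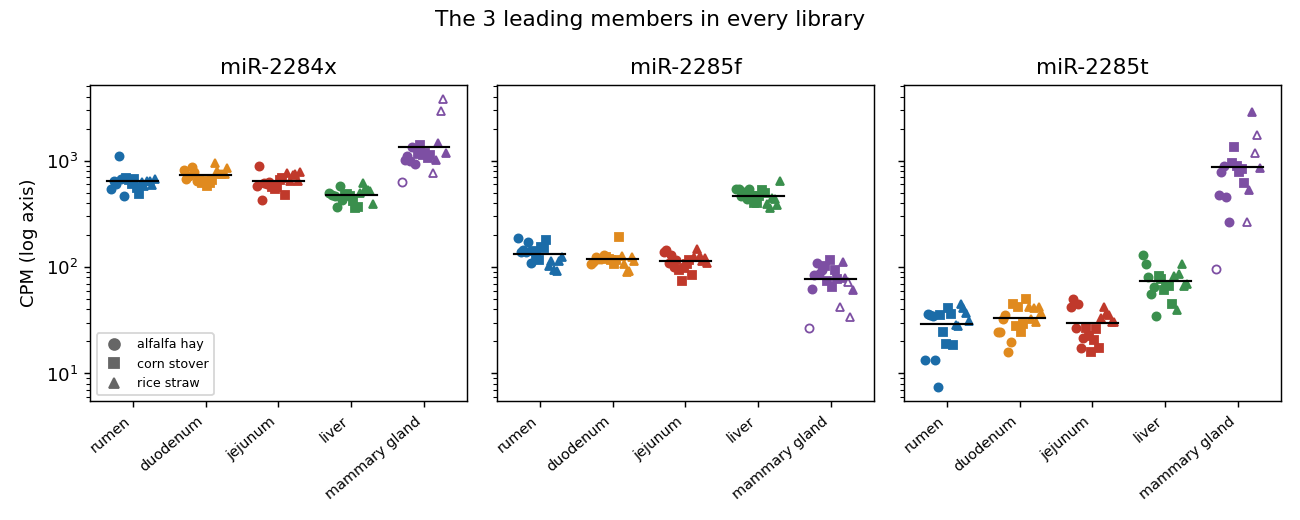
CPM (y axis, log scale) of miR-2284x, miR-2285f and miR-2285t in each of the 90 libraries, by tissue, with symbols for the diets, a line at the tissue mean and open symbols for the 4 shallow mammary gland libraries. All liver values of miR-2285f lie above 360 CPM and all others at 192 CPM or below, and 17 of 18 mammary gland values of miR-2285t lie above 129 CPM.

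The other 3 abundant members had their highest means in duodenum and their lowest in liver. miR-2284aa ranged from 115 to 204 CPM in duodenum (median 148) and from 33.3 to 81.4 CPM in liver (55.5), which did not overlap, and the log2 difference between liver and duodenum was -1.44 ± 0.10 (adjusted p = 5.68e-16). miR-2285k ranged from 81.5 to 232 CPM in duodenum (126) and from 28.4 to 65.3 CPM in liver, again without overlap, at a log2 difference of -1.66 ± 0.11 (adjusted p = 1.66e-17). miR-2284z was closest to even across tissues, with means of 73.9 CPM in duodenum and 44.3 CPM in liver and a log2 difference of -0.75 ± 0.10 (adjusted p = 2.08e-08). Between duodenum and jejunum no difference passed the threshold for any of the 3, with limma adjusted p of 0.105 to 0.615.

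Among the members listed everywhere, miR-2285c had the largest mean ratio of rumen to the next tissue. It was at 6.82 to 17.2 CPM in rumen (median 11.2) and at 0 to 13.3 CPM in mammary gland (6.62), a mean ratio of 1.84 and a log2 difference of -0.97 ± 0.24 for mammary gland minus rumen (adjusted p = 0.000346). Without the shallow mammary gland libraries, miR-2285c was at 1.83 to 10.7 CPM there (n = 14). In duodenum, miR-2284k held that place at 1.15 to 5.29 CPM (2.75), 1.65 times its mean in mammary gland, where values were 0 to 3.27 CPM (1.52). The log2 difference between mammary gland and duodenum was -0.51 ± 0.17 (adjusted p = 0.00630). In the 14 mammary gland libraries that were not shallow, miR-2284k was at 0.678 to 3.16 CPM. In jejunum no member stood out. miR-2284w, the only one with its highest mean there, was at 14.7 to 32.6 CPM (21.7), a ratio of 1.02 to rumen with a log2 difference of 0.02 ± 0.12 (adjusted p = 0.883).

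By the highest mean, 5 of the 17 members listed everywhere belonged to duodenum, 5 to rumen, 3 to liver, 3 to mammary gland and 1 to jejunum, and 12 of the 17 were lowest in liver. In the fit over all 90 libraries all 17 passed the F test of a difference between tissues (adjusted p of 0.05 or less), where 99.3% of all miRNAs tested did, so this count says little about the family. The pairs of tissues separate more. Between jejunum and duodenum 3 of 22 members tested were called, all lower in jejunum (background 24.2% called, 9.97% lower). They were miR-2284k, miR-2285m and miR-2284y. miR-2284y belongs to the family as well, but lies outside the naming rule, which set the members to be named in the text. With either scaling 6 were called, again all lower in jejunum (no background given for the scalings).

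Between duodenum and rumen 13 of 21 members were called, 6 higher and 7 lower in duodenum (background 75.8%, with 30.6% higher and 45.2% lower). The scalings moved the median of all miRNAs by 0.22 and 0.20 in this pair, and 8 of 13 called members were then higher with the upper quartile and 8 of 14 with the trimmed mean. The share of all miRNAs called with the scalings is not given. Between jejunum and rumen 10 of 20 were called, 3 higher and 7 lower (background 73.8%, with 31% higher and 42.8% lower). miR-2284aa and miR-2285k were higher in both gut tissues than in rumen, by 0.66 ± 0.10 and 0.72 ± 0.18 in duodenum and by 0.48 ± 0.12 and 0.62 ± 0.20 in jejunum (log2, adjusted p of 0.00580 or less in limma). miR-2285c was lower in both, with differences of -1.08 ± 0.12 and -1.25 ± 0.12. miR-2285p, at 8.82 CPM on average in rumen, was lower in both as well. These comparisons share the rumen libraries.

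Liver differed from the gut tissues in most members. Called were 17 of 18 against duodenum (background 85%), 15 of 18 against jejunum (background 85.3%) and 16 of 18 against rumen (background 84.5%), with 4 higher in liver in each (background 35%, 33.2% and 29.6%) and 13, 11 and 12 lower (background 50%, 52.1% and 54.9%). The median log2 difference of the members was -0.66, -0.48 and -0.74, and that of all miRNAs tested was -0.27, -0.36 and -0.43. The median of all miRNAs moved with the scaling, by 0.39, 0.46 and 0.67 with upper-quartile and 0.21, 0.26 and 0.48 with trimmed-mean scaling, and the split changed with it. Of 13 members called against rumen with upper-quartile scaling, 8 were higher and 5 lower in liver, and with the trimmed mean 5 of 12 were higher. Against duodenum 5 of 14 and 5 of 16 were higher, and against jejunum 6 of 12 and 5 of 12. The members called lower in liver than in all 3 gut tissues under every planned setting but the 5 CPM filter, which was not counted, were miR-2284v, miR-2285b and its near-equal partner miR-2285u, and those called higher were miR-2285f, miR-2285t and 2 outside the naming rule, miR-2285e and miR-2285o. With either scaling, then, fewer members were called lower in liver than with the unscaled CPM, against each of the 3 gut tissues. The share of all miRNAs called in each direction under the scalings is not given, so these counts describe the members only.

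Mammary gland differed from duodenum in 16 of 18 members (background 75.9%), from jejunum in 14 of 18 (background 70.5%), from rumen in 15 of 21 (background 71.9%) and from liver in 8 of 17 (background 65%). Of these, 5, 4, 4 and 6 were higher in mammary gland (background 37.9%, 34.6%, 28.1% and 35.9%) and 11, 10, 11 and 2 lower (background 37.9%, 35.9%, 43.9% and 29.1%). Against liver the split turned with upper-quartile scaling, where 3 of 9 called members were higher, and with the trimmed mean 5 of 8 were. Against rumen 5 of 14 were higher with either scaling. For these scaled fits the share of all miRNAs called is not given. The median of all miRNAs moved by -0.35 against liver, 0.26 against rumen and 0.13 against jejunum with the upper quartile. miR-2284x, miR-2285t and miR-2284y were called higher in mammary gland than in each of the other 4 tissues under every planned setting but the 5 CPM filter, and miR-2285f was called lower than in each. Without the 4 shallow libraries the counts were 17, 16, 16 and 10, with no share of all miRNAs given for these fits.

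The diet comparison asked whether the forage changed a tissue's miRNAs. By the F test over the 3 diets, 4 of 21 members tested in jejunum were called (background 23.8%), and 0 of 24 in rumen (background 1.49%), 0 of 24 in duodenum (background 0%), 0 of 18 in liver (background 0%) and 0 of 22 in mammary gland (background 3.72%). At an unadjusted p under 0.05 there were 6 members in rumen and 3 in duodenum, beside 69 of 335 and 36 of 336 miRNAs tested. Liver had 0 and mammary gland 4, beside 17 of 326 and 101 of 323 miRNAs tested. The share of members called in jejunum was close to that of all miRNAs there.

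In jejunum, all 4 called members, miR-2285k, miR-2285p, miR-2285m and miR-2284aa, had their lowest median in corn stover. miR-2285k was at 58.6 to 110 CPM with corn stover (median 83.4), at 137 to 189 CPM with alfalfa hay (147) and at 123 to 166 CPM with rice straw (136). The corn stover libraries all lay below all others. The log2 difference was -0.91 ± 0.15 for corn stover minus alfalfa hay (n = 6 each, limma adjusted p = 0.000148) and 0.76 ± 0.15 for rice straw minus corn stover (adjusted p = 0.000909). miR-2285k stayed past the threshold in both contrasts in all 18 fits that left out 1 library and in all 8 planned settings.

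miR-2285p was also lowest in corn stover, at 0.828 to 2.01 CPM in corn stover (median 1.45), 1.29 to 4.25 in alfalfa hay (3.57) and 3.02 to 5.01 in rice straw (4.66), its highest median. Corn stover and rice straw did not overlap, and their log2 difference was 1.10 ± 0.20 (adjusted p = 0.000483). The difference of corn stover from alfalfa hay, whose values overlapped, was -0.71 ± 0.20 (adjusted p = 0.0151). miR-2285m was at 0.407 to 1.03 CPM in corn stover (0.557), 1.17 to 1.62 in alfalfa hay (1.38) and 0.846 to 1.39 in rice straw (1.04). This rests on 3 to 14 reads per library, and 3 reads were worth 0.289 to 0.752 CPM in jejunum. Its log2 difference, understated at such levels by the added 1 CPM, was -0.57 ± 0.13 for corn stover minus alfalfa hay (adjusted p = 0.00331).

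The contrast of corn stover with alfalfa hay called miR-2285k, miR-2285p and miR-2285m, all lower in corn stover (background 22% called, 14% lower and 8.04% higher). That of rice straw with corn stover called 9 of 21, all higher in rice straw (background 28.6% called, 19.3% higher and 9.23% lower). Both contrasts use the corn stover libraries. Beside the 3 above, the 9 were miR-2284aa (0.57 ± 0.18, adjusted p = 0.0231), miR-2284k (0.70 ± 0.22, 0.0215), miR-2285t (0.67 ± 0.22, 0.0296), miR-2284v (0.81 ± 0.29, 0.0379), miR-2285f (0.37 ± 0.13, 0.0404) and miR-2285b (0.53 ± 0.20, 0.0480). The fourth member of the F test was miR-2284aa, at 143 to 208 CPM in rice straw (168), 96.5 to 162 in corn stover (105) and 70.2 to 172 in alfalfa hay (123). miR-2284k and miR-2285t did not overlap between rice straw and corn stover, at 1.60 to 3.51 against 0.330 to 1.55 CPM and at 30.4 to 42.1 against 16.0 to 26.8 CPM. The other calls were close to the threshold. miR-2284v was called in 10 of 18 fits that left out 1 library, miR-2285f in 10 and miR-2285b in 6. The median log2 difference of all 21 members was 0.46, against 0.18 over all miRNAs, whose median the trimmed-mean scaling moved by -0.14. With that scaling 4 members were called (no background given for it). Leaving out single libraries moved the F test count to 9 without alfalfa hay replicate 3 and to 7 without corn stover replicate 4, and the count of 9 to 4 without corn stover replicate 3 and to 5 without rice straw replicate 2 or 4. Rice straw and alfalfa hay differed in 0 of 21 members (background 0%). At an unadjusted p under 0.05 there were 3 members, beside 18 of 336 miRNAs tested.

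**Figure D4:**
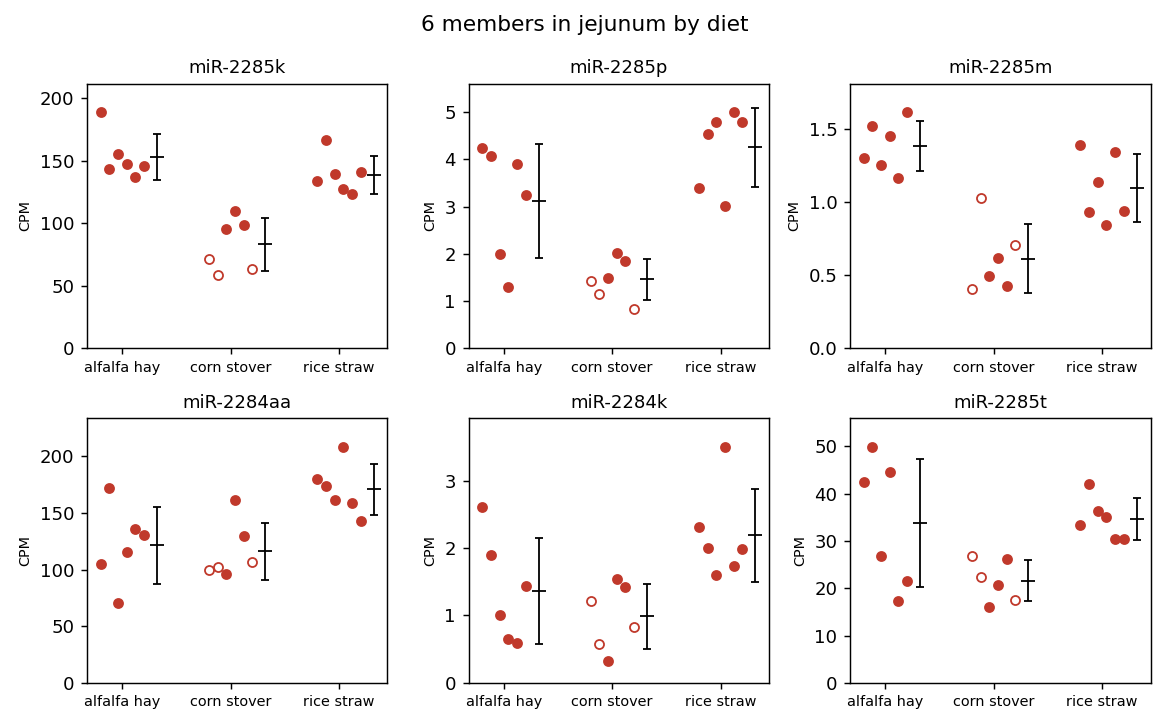
CPM (y axis, from 0) of 6 members in the 18 jejunum libraries by diet, 6 libraries per diet, with bars for the mean ± SD. Open symbols mark the 3 corn stover libraries with miR-31 under 100 CPM. For miR-2285k all corn stover values, 58.6 to 110 CPM, lie below all others, and the 3 open symbols are the lowest of them.

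The differences were fitted again without the 3 corn stover libraries low in miR-31, a choice made after their values were seen. This left 3 corn stover libraries. Then 2 members were called between corn stover and alfalfa hay and 1 between rice straw and corn stover. The share of all miRNAs called in this fit is not given. Whether calls were lost to the smaller group or to these libraries was not tested. miR-2285k was still lower in corn stover than in alfalfa hay, with a log2 difference of -0.58 (adjusted p = 0.0120), as was miR-2285m with -0.66 (adjusted p = 0.0129). miR-2285p still differed between rice straw and corn stover, by 0.91 (adjusted p = 0.0295), while miR-2285k did not pass there, at 0.44 (adjusted p = 0.0509). Marker miRNAs of other cells were as follows. The 5 leukocyte miRNAs summed to 18568 to 29324 CPM in corn stover (median 21088), 20154 to 31481 in alfalfa hay (29560) and 20942 to 31272 in rice straw (28254). The 2 smooth muscle miRNAs summed to 184453 to 296908 CPM in corn stover (256990), 147053 to 246794 in alfalfa hay (205043) and 151920 to 237701 in rice straw (187098). The 3 intestinal epithelium miRNAs overlapped between the diets, with medians of 213911, 236682 and 252984 CPM. Each listed marker was above 0 in all 18 jejunum libraries, and miR-205, miR-203b, miR-206 and miR-122 were not listed there. The part of these cells in the diet differences was not tested.

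In mammary gland 2 of 22 members were called between rice straw and corn stover, both lower in rice straw (background 26.6% called, 25.1% lower). miR-2284z was at 9.82 to 72.9 CPM in rice straw (median 34.0) and 54.2 to 101 CPM in corn stover (65.8), a log2 difference of -1.29 ± 0.47 (adjusted p = 0.0481). miR-2284n was at 0 to 3.27 CPM in rice straw (1.28) and 2.09 to 4.52 in corn stover (3.68), at -1.11 ± 0.41 (adjusted p = 0.0481). Both groups of values overlapped, and both calls were lost in 14 of the 18 fits that left out 1 library. Without the 4 shallow libraries neither passed, at -0.42 (adjusted p = 0.251) and -0.35 (adjusted p = 0.316).

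The direction of diet calls in mammary gland turned with the scaling. The median of all miRNAs in rice straw minus corn stover was -0.63 on the log2 scale, and upper-quartile and trimmed-mean scaling moved it by 0.71 and 0.60. With these scalings, for which no background is given, neither miR-2284z nor miR-2284n was called. Called instead, and higher in rice straw, were 4 members with the upper quartile (miR-2284x by 1.26, miR-2285k by 1.23 and, outside the naming rule, miR-2284b and miR-2285q) and 3 with the trimmed mean (miR-2284x, miR-2284b and miR-2285q). miR-2284x itself was at 2954 and 3771 CPM in rice straw replicates 4 and 5 and at 767 to 1466 CPM in the other 4 libraries of that diet. In those 2 libraries the leukocyte miRNA miR-142-5p was at 496 and 234 CPM, against 1730 to 8086 CPM in the other 16. The 5 leukocyte miRNAs summed to 573 to 8666 CPM in rice straw (median 2562), 3590 to 9370 in corn stover (6319) and 1936 to 6378 in alfalfa hay (4841). In the same order, the 5 mammary epithelium miRNAs summed to 98001 to 256742, 138989 to 188443 and 133707 to 191729 CPM. Of that sum miR-148a alone was at 86639 CPM or more, while miR-141 was at 5685 and 3593 CPM in rice straw replicates 4 and 5. Depth, cell make-up and diet cannot be told apart in these libraries.

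The family's share had its lowest mean in alfalfa hay and its highest in rice straw in mammary gland, at 0.188% ± 0.0567 in alfalfa hay, 0.254% ± 0.0348 in corn stover and 0.345% ± 0.181 in rice straw (SD, n = 6 each). The ranges overlapped, from 0.0880% to 0.233%, 0.216% to 0.318% and 0.126% to 0.578%. Without the 4 shallow libraries alfalfa hay was at 0.208% ± 0.0318 (n = 5) and rice straw at 0.305% ± 0.150 (n = 3). The rice straw values then ran from 0.201% to 0.478%. Their median of 0.237% was below the corn stover median of 0.246%, and that of alfalfa hay was 0.225%. In jejunum the share was 0.125% ± 0.0225 with alfalfa hay, 0.106% ± 0.0152 with corn stover and 0.141% ± 0.00589 with rice straw, and all corn stover libraries, at 0.0897% to 0.127%, lay below all rice straw libraries, whose median was 0.142%. The 3 corn stover libraries not low in miR-31 had a mean of 0.117% ± 0.0129. In rumen, duodenum and liver the group means lay between 0.114% and 0.146%.

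In rumen no member was called. The smallest adjusted p was that of miR-2285k. It was at 52.6 to 229 CPM with alfalfa hay (median 133), 43.9 to 131 with corn stover (85.2) and 33.6 to 70.8 with rice straw (51.1), a log2 difference of -1.15 ± 0.32 for rice straw minus alfalfa hay (adjusted p = 0.0632, background 2.69% called, 1.19% higher and 1.49% lower), and values overlapped. That contrast called 4 members, all lower in rice straw, with upper-quartile scaling and 3 with the trimmed mean, miR-2285k and miR-2285f among them. No background is given for these scalings. The median of all miRNAs in this contrast was 0.18 and was moved by -0.20 and -0.17.

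In the other 11 diet pairs, those of duodenum and liver, 2 each of rumen and mammary gland and that of rice straw with alfalfa hay in jejunum, 0 members were called (background 0%). At an unadjusted p under 0.05 each pair had 0 to 3 members, beside 10 to 56 of the 323 to 336 miRNAs tested. A diet difference seen in 1 tissue and not in another was tested as such over all 90 libraries. The interaction of diet and tissue was called for 6 of the 17 members listed everywhere (background 45.7%). miR-2285k had the smallest adjusted p, 0.00107. Its log2 difference of corn stover from alfalfa hay was largest in jejunum at -0.91 ± 0.15. Rumen had -0.49 ± 0.32, duodenum 0.24 ± 0.16, liver -0.20 ± 0.20 and mammary gland -0.20 ± 0.34. miR-2284z followed at 0.00275, and the others were miR-2284aa (0.0123), miR-2284k (0.0473) and 2 outside the naming rule, miR-2285q (0.00562) and miR-2284y (0.0183). miR-2284x, miR-2285f and miR-2285t, the most abundant members, were not among them, at adjusted p of 0.412, 0.161 and 0.112. Without the 4 shallow mammary gland libraries the count was again 6 (background 44.3%), but miR-2284z (adjusted p = 0.0800) and miR-2284k (0.0506) were no longer called, and miR-2285f and miR-2285c were. Without the 3 jejunum libraries low in miR-31 it was 5 (background 37.7%), with miR-2284k lost (0.101). Without all 7 it was 3 (background 34.9%), namely miR-2285k (0.00162), miR-2285q (0.0141) and miR-2284y (0.0215), while miR-2284aa (0.0791) and miR-2284z (0.118) did not pass.

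Members differed in how their levels went together across libraries. After the tissue means were taken out, the 136 pairs of the 17 members listed everywhere had a median Pearson r of 0.31 over 90 libraries on the log2(CPM + 1) scale, against 0.24 for all 41616 pairs of the 289 miRNAs. These points share libraries, depth and cell make-up, so the values are a description only. The pair miR-2284aa and miR-2284z followed each other at r = 0.89, with 0.34 in rumen and 0.86 to 0.96 in the other tissues. miR-2284x and miR-2284y reached 0.90 within mammary gland and 0.41 to 0.77 elsewhere.

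miR-2285b and miR-2285u were alike beyond this, and were looked at after their values were seen. Their r was 0.97, the second highest of all 41616 pairs, and 0.95 to 0.99 within each tissue. Their reads differed by 0 to 17 per library, with a median of 2, at 0 to 130 reads of miR-2285b and 0 to 138 of miR-2285u. In 67 of 90 libraries they lay within 5 reads of each other, and the ratio of miR-2285u to miR-2285b had a median of 1.06. It was 1 in rumen and 1.10 in duodenum. RefSeq places miR-2285b at 2 genes and miR-2285u at 1, which overlaps that of MIR2284Y-2. Whether the same reads were counted for both was not tested. With the pair counted once, the family share moved by under 0.01 percentage points in each tissue.

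**Figure D5:**
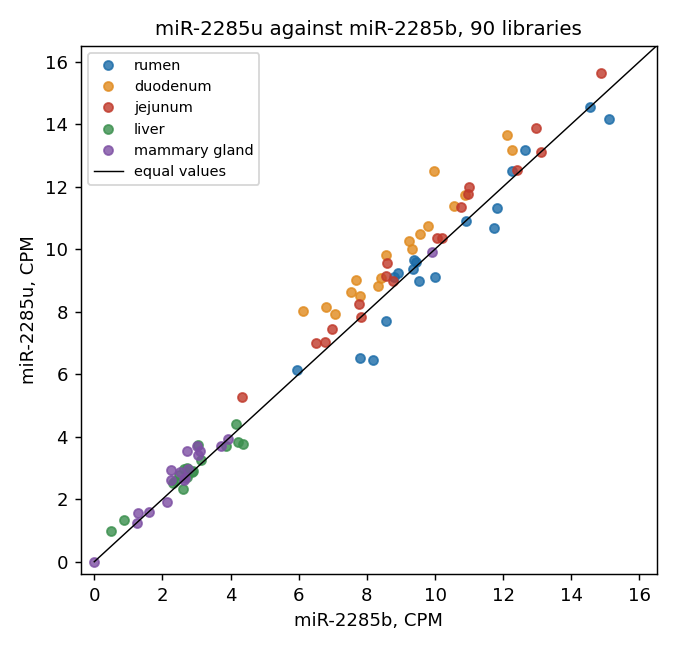
CPM of miR-2285u (y axis) against miR-2285b (x axis) in each of the 90 libraries, coloured by tissue, with the line of equal values. The points follow the line over 0 to 15.6 CPM, with duodenum above it at a median ratio of 1.10 and rumen on it at 1.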

How the data were processed

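Small RNA libraries of 90 tissue samples (5 tissues, 3 diets, 6 libraries each) were analysed from the deposited per-sample tables, whose values are CPM. Per the labels and the study's methods, RNA was isolated with the mirVana kit, reads were base-called with CASAVA 1.8 and mapped with sRNAbench to bovine precursors of miRBase 22, with 2 mismatches and up to 10 mappings allowed, and the authors divided by the total reads mapped to miRNAs. The genome build is not given in the sources used here. Each tissue lists the same miRNAs in its 18 libraries, each above 1 CPM in at least 9 of them. A mapping that allows mismatches and several places can share reads between members of a family.

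Groups came from the labels. limma 3.58.1 (R 4.3.3; lmFit, eBayes with trend) was run over all miRNAs on log2(CPM + 1) of the unscaled values, and p-values were adjusted by Benjamini-Hochberg within each comparison at a threshold of 0.05. A miRNA was tested if above 1 CPM in over 50% of the libraries of at least 1 tissue of the fit. The 5 tissues were compared by an F test over 90 libraries and in 10 pairs of 36, the diets within each tissue (F test and 3 pairs, 18 libraries), and diet by tissue over 90. The cow was not in these fits, since the labels do not say that a replicate number marks a cow. By the design, the 18 libraries of 1 tissue come from 18 cows. The fits were checked on simulated data. Alternatives were pseudocounts of 0.1 and 5 CPM, no filter, a filter of 5 CPM, upper-quartile (75%) and trimmed-mean scaling (30% and 5% trimmed), a replicate block, and leaving out libraries. Background shares of all miRNAs are given for the main fits and the interaction test, not for the other settings. Depth was read from the value of 1 read, the step of which low CPM values are whole multiples, and 3 reads were worth 0.192 to 3.20 CPM. Such values cover counting error only.

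Named were the 5 highest members of each tissue, every member listed in 1 tissue, every member called between diets and, per tissue, the member with the largest ratio to the next tissue. The members, lists and tests were chosen with earlier results of these data known. RefSeq names came from the table of ARS-UCD2.0. Overlaps came from its gene start and end positions, and any shared position was counted as within the span. Tables were handled with Python 3.11.15, pandas 2.3.3 and numpy 2.4.6.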

Additional observations from a re-analysis of the deposited data

Results flagged for a closer look

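In the 15 groups for the family share and the diet groups of the members called between diets, 1 of 48 groups of 6 held a library far from the others, where chance flags about 1 in 20. miR-2285k was at 189 CPM in jejunum alfalfa hay replicate 1, against 137 to 155 CPM in the other 5 libraries, a gap of 0.643 of the group's range, above Dixon's 95% critical value. The contrast with corn stover stayed past the threshold without that library.

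The diet difference differed between tissues by the interaction test in limma for miR-2285k (adjusted p = 0.00107), miR-2284z (0.00275), miR-2285q (0.00562), miR-2284aa (0.0123), miR-2284y (0.0183) and miR-2284k (0.0473). Without the 4 shallow mammary gland and 3 miR-31-low jejunum libraries, miR-2285k, miR-2285q and miR-2284y remained called. miR-2284z was lower in rice straw than in corn stover in mammary gland, with a log2 difference of -1.29 ± 0.47 (adjusted p = 0.0481). That call was lost in 14 of 18 fits that left out 1 library and with either scaling, and without the 4 shallow libraries the difference was -0.42 (adjusted p = 0.251) and the interaction adjusted p 0.0800. miR-2284z had a difference of 0.42 ± 0.17 in jejunum that did not pass (adjusted p = 0.0660). miR-2284y had its largest diet difference in rumen, -0.95 ± 0.33 for corn stover minus alfalfa hay, which did not pass either (adjusted p = 0.131). miR-2284k had a difference of -0.68 ± 0.21 for rice straw minus alfalfa hay in duodenum (adjusted p = 0.377) and of 0.47 ± 0.22 for the same diets in jejunum (adjusted p = 0.726).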

How the results depend on the processing

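In jejunum the F test count of 4 members was 2 with a filter of 5 CPM, 9 without the shallowest library and 2 without the 3 libraries low in miR-31. The count of 3 between corn stover and alfalfa hay was 1 with that filter and 5 without the shallowest library. The count of 9 between rice straw and corn stover was 4 with trimmed-mean scaling and 1 without the libraries low in miR-31. In mammary gland the F test count of 0 was 2 with either scaling and 2 without the shallowest library, and the count of 2 between rice straw and corn stover was 0 with a pseudocount of 0.1 CPM, 1 with the filter, 4 with the upper quartile, all in the other direction, and 0 without the 4 shallow libraries. In rumen the count of 0 between rice straw and alfalfa hay was 2 with the filter, 4 with the upper quartile and 3 with the trimmed mean. The interaction count of 6 was 3 without all 7 libraries that stand apart. Between jejunum and duodenum the count of 3 was 1 with the filter, which tests fewer members, and 6 with either scaling. Without its most abundant member rumen had a family share of 0.0578%, duodenum 0.0645%, jejunum 0.0596%, liver 0.0778% and mammary gland 0.128%. Among single members, the log2 difference of jejunum minus duodenum changed sign in the following cases. That of miR-2285k became 0.072 without the libraries low in miR-31. That of miR-2285u became 0.0058 without the shallowest libraries and 0.029 without those low in miR-31. The adjusted p of these log2 differences did not pass the threshold before or after. Apart from the interaction test, the member counts here stand without the share of all miRNAs called in each setting, so they describe the members only. Unless the setting's construction shows it, the cause was not tested.

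Leaving out 1 library at a time gave 3 to 9 members for the jejunum F test, 3 to 7 for corn stover against alfalfa hay (5 without alfalfa hay replicate 3, 5 or 6, 7 without corn stover replicate 4) and 4 to 12 for rice straw against corn stover. It gave 0 to 2 for the mammary gland F test (2 without alfalfa hay replicate 1) and 0 to 3 for its rice straw against corn stover, which stayed above 0 only without alfalfa hay replicate 1 or rice straw replicate 2, 3 or 6. In rumen the ranges were 0 to 2 for the F test, 0 to 1 for corn stover and 0 to 3 for rice straw against alfalfa hay, each above 0 without alfalfa hay replicate 2 or 3, and in duodenum 0 to 1 for rice straw against alfalfa hay (1 without rice straw replicate 6).

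The replicate number was fitted as a block. Libraries of the same number and diet in different tissues had a median correlation of 0.075 over 180 pairs, with 82 above 0.1 (other numbers: -0.021 over 900 pairs, 220 above 0.1). A library was closest to its own number in 113 of 360 comparisons with 6 libraries each, where a random pick would find it in 1 of 6. This is a hint from the data. Not every pair was above 0.1 and the labels do not say what a number marks, so it was not taken as a pairing. In the diet fits the block joined libraries of the same number across the diets of a tissue, which by the design are different cows. Such libraries had a median correlation of 0.0296 over 90 pairs, with 31 above 0.1. With that block, 6 members were called by the jejunum F test, 6 between rice straw and corn stover there, and 1 between rice straw and alfalfa hay in rumen (miR-2285k). These diet fits were thus not blocked by cow. The share of all miRNAs called with the block is not given. A count test on recovered reads was not run. Depth limits members under 2 CPM most.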
